A study of Mus musculus with 16 samples.

Results

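Rab proteins are the largest family of small GTPases. They switch between a GDP-bound form held in the cytosol by GDP dissociation inhibitors and a GTP-bound form anchored in membranes by prenyl groups, and each marks a particular compartment, where it recruits the effectors that move, tether and fuse vesicles. Exchange factors (GEFs) turn them on and GTPase-activating proteins (GAPs) turn them off. In migrating fibroblasts, membrane supplied by these routes feeds the leading edge, and *Rab13*, which is best known from trafficking to tight junctions and from cell migration, is one of the RNAs known to gather in cell protrusions.

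The Rab RNAs described here were all rows of the expression table whose symbol is Rab followed by a number and at most 1 letter. This gave 42 of the 12900 RNAs, without use of any measured value. RNA was measured by RNA-Seq in NIH/3T3 cells, an established line of mouse embryonic fibroblasts. The cells had been stably transduced with a lentivector from which doxycycline induces a transcript that codes for human β-globin and ends in 1 of 2 3′UTRs, that of β-globin itself (the HBB line) or that of mouse *Pkp4* (the Pkp4 cUTR line), so that both lines made an exogenous RNA and every group received doxycycline. Serum-starved cells were plated on filters with pores of 3 μm and extended protrusions (Ps) through the pores toward lysophosphatidic acid. Ps and cell bodies (CB) were collected from separate filters after a short fixation. The 4 groups (HBB CB, HBB Ps, Pkp4 cUTR CB and Pkp4 cUTR Ps) held 4 samples each. The comparison of Ps with CB asks which RNAs are enriched in protrusions, and the comparison of the lines asks whether an excess of the *Pkp4* 3′UTR alters that distribution. The study's text calls the replicates independent, but the labels do not say whether they were separate cultures, so the p-values measure the spread between these samples, which may be partly technical.

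The reads counted per sample numbered 18660287 to 31260831, and 3 reads, the floor of detection used here, corresponded to 0.0890 to 0.176 CPM (reads scaled to a library of 1e+06). By distance over all RNAs, 14 of 16 samples lay nearest to a sample of their own group, whereas replicate 4 of the HBB CB and replicate 4 of the Pkp4 cUTR CB lay nearest to each other. *Pkp4* itself, whose 3′UTR the construct carries, was 4.44 higher on the log2 scale in Pkp4 cUTR than in HBB CB (SE 0.20). Of 10 fibroblast markers, 9 were in the table, with mean log2 CPM of 4.98 to 12.5. Markers of other cell types were absent or low, the highest being *Cd68* at 2.31 and *Cdh1* at 2.10. In Ps, 7 of the 9 fibroblast markers were lower and 1 (*Vim*) was higher, in each line. Of 4 RNAs listed here as nuclear-retained, *Malat1* and *Neat1* were lower, *Snhg1* was higher and *Kcnq1ot1* was not called, in each line. Whether *Snhg1* belongs in this list was not tested, so its rise is not read as a sign of nuclear RNA in Ps. The part of these shifts in the results was not tested. In bulk fractions, more of an RNA in each protrusion and more protrusions from cells rich in that RNA cannot be told apart.

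*Rab13* lies on the forward strand of chromosome 3 (90213695 to 90226385 in GRCm38) and overlaps no other annotated gene. It belongs with *Rab8a*, *Rab8b* and *Rab10*, which act in transport from the Golgi and recycling compartments to the plasma membrane, to a subfamily of closely related sequences. The 3′UTRs were examined because the exogenous sequence in this study is a 3′UTR. Of their features, purine content was picked for description, and that of the *Pkp4* 3′UTR was not compared. For each of these 4 RNAs, the 30 bases around the longest unbroken run of A and G in the annotated 3′UTR are shown, 5′ to 3′ on the RNA strand, with the run in capitals. For *Rab8b*, whose run of 61 bases is longer, the first 30 bases of the run are shown.
Rab13: tttGAGAAGAGGAAAGGAAGAAGAAAtgaa
Rab8a: aggcacagatGGAGAGAGGttgggtggggg
Rab8b: GAGAGAGAGAGAGAGAGAGAGAGAGAGAGA
Rab10: atattttAAAAAAGAAAAAGGAccgcaaaa

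The *Rab13* window covers bases 201 to 230 of a 3′UTR of 386 bases, in the last of 8 exons (chr3:90225784-90225813, forward strand), and its run is 23 bases long. In *Rab10* the run is 15 bases long (chr12:3248416-3248445, reverse strand) and in *Rab8a* it is 9 bases long (chr8:72180367-72180396, forward strand), in 3′UTRs of 2359 and 3767 bases. The *Rab8b* run is a GA repeat (chr9:66845224-66845253, reverse strand) in a 3′UTR of 4055 bases. Over the whole 3′UTR, A and G made up 61.7% of the bases of *Rab13*, and 0.599% of the 11177 RNAs with an annotated 3′UTR had as high a share. The other 3 members of the subfamily had shares of 45.4% (*Rab10*), 46.7% (*Rab8a*) and 47.4% (*Rab8b*). The median over the 42 Rab RNAs was 47.4%, beside 48.5% over all RNAs, and the next highest Rab RNA was *Rab44* at 52.9%. The run length alone did not set *Rab13* apart in this way, since 6.89% of RNAs had a run of 23 bases or more and only 0.787% had one as long as that of *Rab8b*.

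Per kilobase of annotated exons, the 42 Rab RNAs spanned a wide range of levels. In HBB CB the mean level ran from 0.0662 CPM per kb for *Rab30*, a Golgi Rab, to 179 CPM per kb for *Rab1b*, which acts between the ER and the Golgi, with a median of 9.52 CPM per kb. *Rab13* had the 26th highest level in the CB of both lines and the 8th highest level in the Ps of both lines. Its level in HBB cells was 6.33 CPM per kb ± 0.456 in CB and 32.8 CPM per kb ± 6.44 in Ps (SD, n = 4). In Pkp4 cUTR cells its level was 7.13 CPM per kb ± 0.944 in CB and 32.8 CPM per kb ± 4.79 in Ps (SD, n = 4). In every group the samples of *Rab13* overlapped those of the Rab RNAs ranked directly above and below it, among them *Rab18* in CB and *Rab35* and *Rab11b* in Ps. In HBB CB, 28 of the 41 pairs of neighbours in the order of levels overlapped. These levels rest on the union of annotated exons, which for *Rab13* is 2300 bases, against 1107 bases for the transcript whose 3′UTR is given above.

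**Figure D1:**
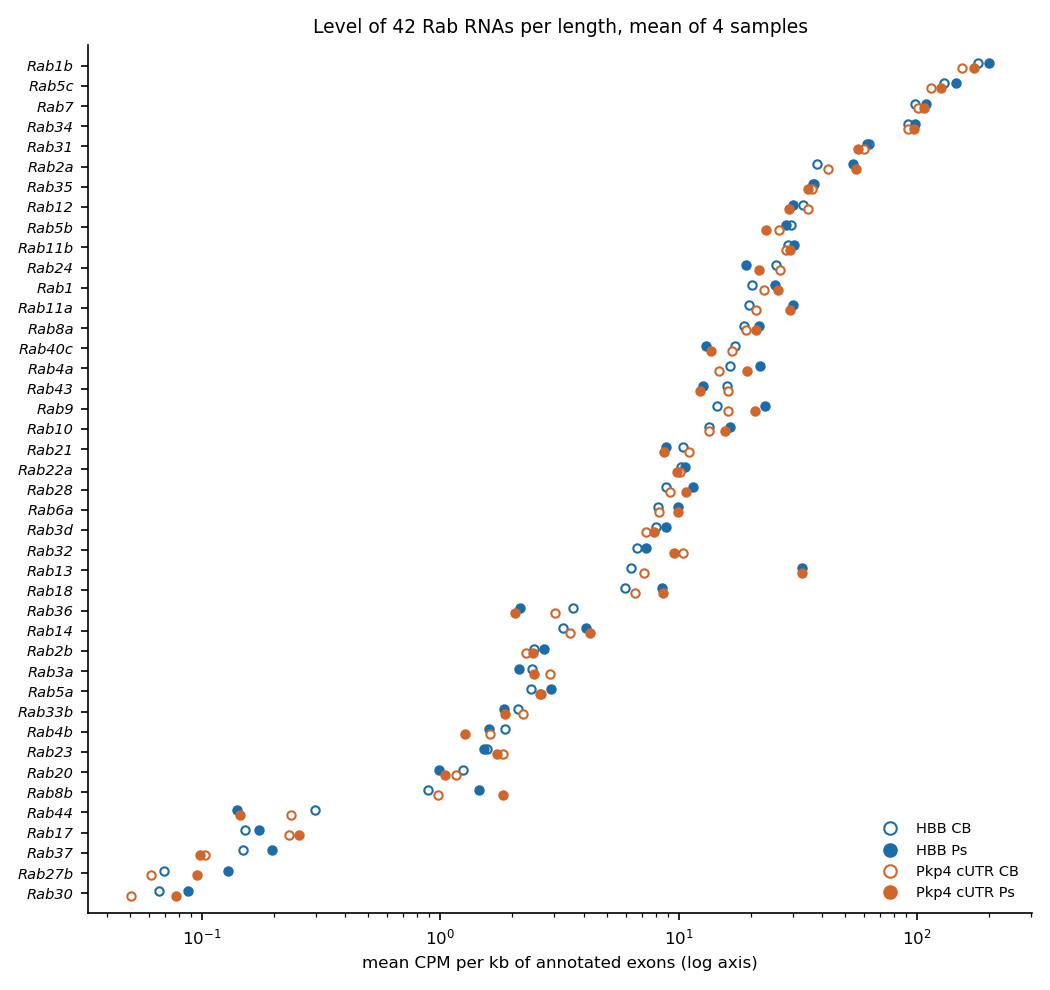
Mean level of each of the 42 Rab RNAs in CPM per kb of annotated exons (log axis), with 1 point for each of the 4 groups (n = 4 samples each; open, CB; filled, Ps; blue, HBB; orange, Pkp4 cUTR). The *Rab13* points of Ps, at 32.8 CPM per kb in both lines, lie far to the right of its CB points at 6.33 and 7.13, whereas the points of most other members lie close together.

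In HBB cells, *Rab13* was the member with the highest enrichment in Ps by a wide margin. Its log2 CPM was 3.95, 3.93, 3.71 and 3.86 in replicates 1 to 4 of the CB and 6.32, 6.08, 6.56 and 5.92 in replicates 1 to 4 of the Ps. All Ps samples lay above all CB samples by more than the whole range within either group. The change was 5.12-fold, or 2.36 on the log2 scale (SE 0.13, 95% CI 2.07 to 2.64, adjusted p = 1.07e-09 from limma), and 11 of the 12900 RNAs had an enrichment at least as high, *Rab13* included. In Pkp4 cUTR cells, its log2 CPM was 4.22, 3.85, 3.87 and 4.17 in the CB and 6.28, 6.13, 6.49 and 6.01 in the Ps. The groups again lay apart, and the change was 4.60-fold, or 2.20 on the log2 scale (SE 0.13, 95% CI 1.92 to 2.48, adjusted p = 3.13e-09 from limma), the 15th highest of all RNAs. The counts behind these values were 320 to 540 reads per CB sample and 1193 to 1784 reads per Ps sample. With any 1 of the 16 samples left out, the log2 fold change of *Rab13* stayed between 2.25 and 2.46 in HBB cells and between 2.11 and 2.27 in Pkp4 cUTR cells.

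The other members of its subfamily rose less. *Rab8b* was at 2.34, 1.98, 1.89 and 2.05 log2 CPM in HBB CB and at 2.74, 2.82, 2.71 and 2.85 in HBB Ps, without overlap, and rose by 0.72 on the log2 scale (SE 0.13, adjusted p = 0.00013 from limma). In Pkp4 cUTR cells it was at 2.15, 2.25, 2.08 and 2.38 in CB and at 2.78, 3.29, 3.26 and 3.10 in Ps, a rise of 0.89 (SE 0.12, adjusted p = 1.19e-05 from limma), again without overlap. *Rab8b* is the paralog of *Rab8a* and was the lowest in abundance of the 4, with 91 to 189 reads per sample.

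*Rab10*, which acts in exocytosis of membrane cargo and in ER dynamics, was at 5.67, 5.59, 5.57 and 5.40 log2 CPM in HBB CB and at 5.85, 5.93, 5.83 and 5.78 in HBB Ps. Its rise of 0.29 (SE 0.07, adjusted p = 0.00151 from limma) was small, but every Ps sample lay above every CB sample. With total reads it was 0.05 and not called (adjusted p = 0.599 from limma). In the Pkp4 cUTR line it was at 5.63, 5.63, 5.46 and 5.51 in CB and at 5.80, 5.70, 5.76 and 5.85 in Ps, a rise of 0.22 (SE 0.07, adjusted p = 0.0132 from limma) that turned to −0.05 when total reads were used as library sizes. The annotated antisense gene *Rab10os* overlaps *Rab10* on the other strand. How the counting treated strand is not stated, so reads of the pair cannot be told apart.

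*Rab8a*, which drives vesicles to cilia and to the cell surface, was at 6.45, 6.38, 6.53 and 6.49 log2 CPM in HBB CB and at 6.64, 6.55, 6.76 and 6.71 in HBB Ps. The highest CB sample (6.53) was just below the lowest Ps sample (6.55), and the rise of 0.20 (SE 0.06, adjusted p = 0.011 from limma) turned to −0.04 with total reads as library sizes. The Pkp4 cUTR samples were at 6.45, 6.43, 6.52 and 6.56 in CB and at 6.55, 6.61, 6.70 and 6.67 in Ps, which overlapped, with a log2 fold change of 0.14 (SE 0.06, adjusted p = 0.0658 from limma), or −0.12 with total reads.

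**Figure D2:**
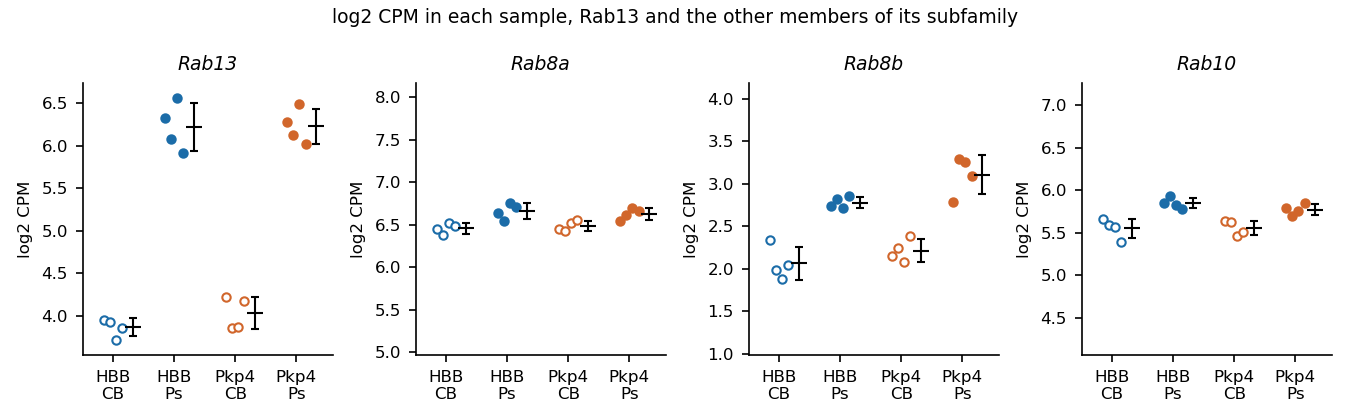
The log2 CPM of *Rab13*, *Rab8a*, *Rab8b* and *Rab10* in each of the 16 samples (points in the order of replicates 1 to 4; open, CB; filled, Ps), with the mean and SD of each group in black; all panels span the same number of log2 units. *Rab13* Ps samples lie at 5.92 to 6.56 and CB samples at 3.71 to 4.22, whereas the groups of *Rab8a* lie within 6.38 to 6.76; the small HBB rise of *Rab8a* and Pkp4 cUTR rise of *Rab10* change sign with total reads as library sizes.

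Whether *Rab13* differed from the rest of the family was tested within samples, so that the scaling of the libraries cancels. For each of the 41 other Rab RNAs, the log2 CPM of *Rab13* minus that of the other RNA was compared between Ps and CB, with the fraction labels permuted within each line. The difference in enrichment was positive for all 41 RNAs, from 1.47 for *Rab8b* to 3.15 for *Rab44*. The two-sided exact permutation p was 0.000408 for each, also after Benjamini-Hochberg adjustment over the 41 comparisons, which is the smallest that the 4900 relabellings can give. Without replicate 4 of both CB groups the differences were 1.36 to 3.31, and the exact p was 0.000816 for all 41, again the smallest possible. With same-numbered Ps and CB of a line relabelled as pairs, the exact permutation p was 0.00781 for all 41, the smallest that 256 relabellings can give. The 41 comparisons share the same *Rab13* values, so they are not independent results. Labels were permuted separately in each line, although same-numbered samples of the lines shared deviations. Within the subfamily the differences were 1.47 to *Rab8b*, 2.02 to *Rab10* and 2.11 to *Rab8a*. The next member after *Rab13* in HBB cells was *Rab27b* at 0.92, a level of enrichment at or above which 839 RNAs lay, and in Pkp4 cUTR cells it was *Rab8b* at 0.89, with 1030 RNAs at or above.

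For the family as a whole, small changes in both directions were the rule. A member was called where the Benjamini-Hochberg adjusted p over all 12900 RNAs was under 0.05. In HBB cells, 16 of 42 Rab RNAs (38.1%) were called higher in Ps, where 28.3% of all RNAs were, and 6 (14.3%) were called lower, where 28.9% of all RNAs were. The median log2 fold change was 0.15 for the Rab RNAs and 0.01 for all RNAs, and without *Rab13* it was 0.13 for the other 41. In Pkp4 cUTR cells, 13 (31.0%) were called higher and 7 (16.7%) lower, beside 28.2% and 28.5% of all RNAs, and the medians were 0.09 for the Rab RNAs and 0.01 for all. Of the Rab RNAs, 12 were called higher in both lines and 6 lower in both, beside 24.1% and 25.3% of all RNAs, and 0 were called in opposite directions. By complete separation of the samples, 15 were higher and 7 lower in HBB cells (25.5% and 26.8% of all RNAs), and 12 were higher and 5 lower in Pkp4 cUTR cells (22.6% and 22.2%).

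The split between higher and lower depended on how the libraries were scaled. With total reads as library sizes, the median of all RNAs moved to −0.23 in HBB and −0.25 in Pkp4 cUTR cells, and 8 Rab RNAs were called higher and 14 lower in HBB cells and 3 higher and 19 lower in Pkp4 cUTR cells. Of the members called higher with the deposited scaling, 8 in HBB and 10 in Pkp4 cUTR cells lost that call. By construction this setting moves all RNAs nearly together. That 0 of the 42 calls, counted over both lines, changed sign relative to that median follows from this and is no separate check. With the deposited scaling the median itself was 0.01 in each line, so the fold changes given here are close to changes relative to it. Without replicate 4 of both CB groups, 15 were called higher and 6 lower in HBB cells and 13 higher and 9 lower in Pkp4 cUTR cells. By the threshold the study used, more than a 2-fold change together with p under 0.05 before adjustment, *Rab13* was the only Rab RNA enriched in Ps, in both lines, where 4.54% of all RNAs in HBB and 5.07% in Pkp4 cUTR cells passed. The same threshold in the other direction was passed by *Rab44* in HBB cells (4% of all RNAs) and by 0 Rab RNAs in Pkp4 cUTR cells (2.92% of all RNAs). The log2 CPM averaged above 1 for 36 of the 42 members, and the other 6 (*Rab44*, *Rab20*, *Rab17*, *Rab37*, *Rab30* and *Rab27b*) lay lower.

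**Figure D3:**
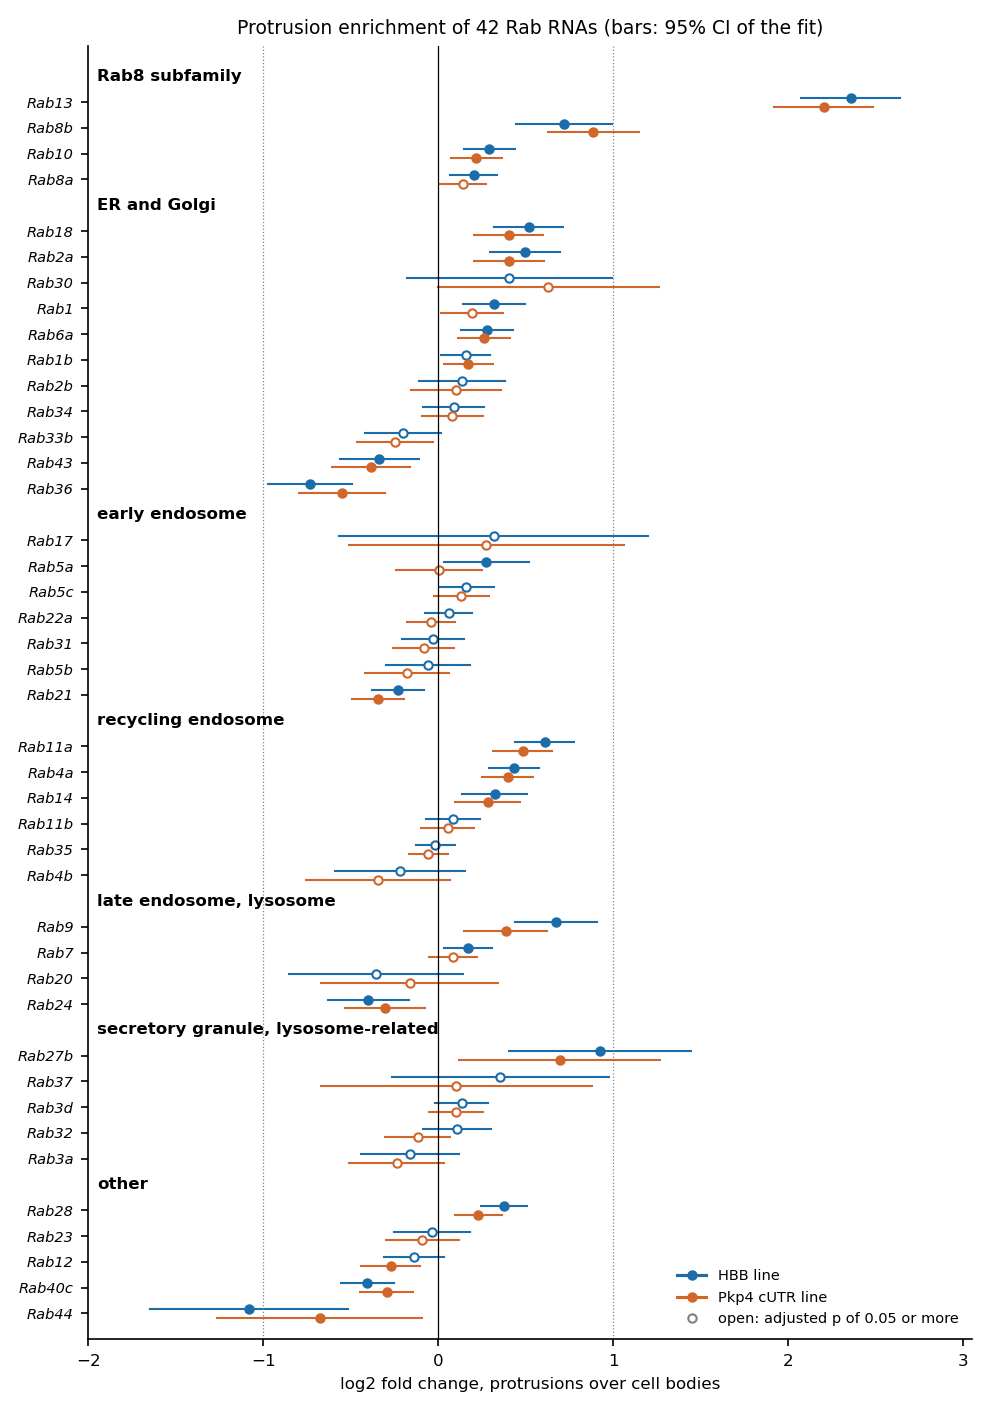
Log2 fold change of Ps over CB for the 42 Rab RNAs, grouped by compartment, in the HBB line (blue) and the Pkp4 cUTR line (orange), with 95% confidence intervals of the fit; filled points have an adjusted p under 0.05 and dotted lines mark a 2-fold change. *Rab13* stands at 2.36 and 2.20, and the other 41 members lie between −1.08 and 0.92; with total reads as library sizes the values of 10 members in HBB and 14 in Pkp4 cUTR cells change sign, among the called members those of *Rab7* and *Rab8a* (HBB) and *Rab28*, *Rab6a*, *Rab10* and *Rab1b* (Pkp4 cUTR).

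Among the 11 Rab RNAs of the ER and Golgi, 4 were higher and 2 lower in each line, and the median was 0.16 in HBB and 0.17 in Pkp4 cUTR cells. *Rab2a*, which acts in traffic between the ER and Golgi, was at 6.41, 6.44, 6.16 and 6.35 log2 CPM in HBB CB and at 6.90, 6.95, 6.82 and 6.67 in HBB Ps, without overlap, and rose by 0.50 (SE 0.10, adjusted p = 0.000231 from limma). Its values in Pkp4 cUTR cells were 6.64, 6.47, 6.20 and 6.62 in CB and at 6.85, 7.01, 6.90 and 6.78 in Ps, and rose by 0.40 (SE 0.09, adjusted p = 0.00151 from limma), or by 0.14 without passing the test with total reads (adjusted p = 0.237 from limma). *Rab18*, found on the ER and on lipid droplets, rose by 0.52 in HBB and 0.40 in Pkp4 cUTR cells, the latter being 0.14 and not called with total reads.

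*Rab36*, a Golgi-associated member, had the largest decrease among the members with a mean log2 CPM above 1. It was at 4.54, 4.57, 4.54 and 4.24 log2 CPM in HBB CB and at 3.82, 3.64, 3.77 and 3.74 in HBB Ps, without overlap, and fell by 0.73 on the log2 scale (SE 0.11, adjusted p = 2.88e-05 from limma). In Pkp4 cUTR cells it was at 4.10, 4.39, 4.46 and 3.89 in CB and at 3.71, 3.72, 3.51 and 3.72 in Ps, and fell by 0.55 (SE 0.12, adjusted p = 0.000668 from limma). Replicate 4 was the lowest CB sample in both lines.

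*Rab43*, which acts in Golgi traffic, was at 6.42, 6.53, 6.58 and 6.32 log2 CPM in HBB CB and at 6.08, 6.04, 6.15 and 6.23 in HBB Ps, without overlap, and fell by 0.34 (SE 0.11, adjusted p = 0.0118 from limma). In the Pkp4 cUTR line it was at 6.32, 6.56, 6.75 and 6.21 in CB and at 6.19, 5.89, 5.95 and 6.26 in Ps, which overlapped, and fell by 0.39 (SE 0.11, adjusted p = 0.00522 from limma). The annotated gene *Gm45140* lies over *Rab43* on the same strand, and how reads shared by them were counted is not stated.

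Of the 7 Rab RNAs of the early endosome, 1 was higher (*Rab5a*) and 1 lower (*Rab21*) in HBB cells, and 1 was lower (*Rab21*) in Pkp4 cUTR cells. *Rab21*, which directs the endocytosis of integrins, was at 5.61, 5.70, 5.68 and 5.85 log2 CPM in HBB CB and at 5.44, 5.57, 5.41 and 5.47 in HBB Ps. It fell by 0.23 (SE 0.07, adjusted p = 0.00927 from limma), with the groups just apart, and lost the call with quantile normalization (−0.17, adjusted p = 0.0653 from limma). The Pkp4 cUTR samples were at 5.78, 5.74, 5.74 and 5.94 in CB and at 5.38, 5.40, 5.47 and 5.56 in Ps, and fell by 0.35 (SE 0.07, adjusted p = 0.000484 from limma).

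*Rab5a*, the best known regulator of fusion of early endosomes, was at 3.87, 3.82, 3.57 and 3.36 log2 CPM in HBB CB and at 3.82, 4.22, 3.78 and 3.94 in HBB Ps, which overlapped. Its difference of 0.27 (SE 0.12, adjusted p = 0.0493 from limma) was at the edge of the threshold and lost the call on leaving out any of 10 single samples. Its values in Pkp4 cUTR cells were 3.90, 3.75, 3.74 and 3.78 in CB and at 3.95, 3.76, 3.62 and 3.84 in Ps, with a log2 fold change of 0.01 (SE 0.12), or −0.26 with total reads as library sizes.

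Among the 6 Rab RNAs of recycling endosomes, 3 (*Rab11a*, *Rab4a* and *Rab14*) were higher in both lines and 0 were lower. Of all RNAs, 24.1% were higher and 25.3% lower in both lines. With total reads, *Rab14* was not called in either line (0.084 and 0.016), nor *Rab4a* in Pkp4 cUTR cells (0.13). *Rab11a*, the main Rab of the recycling endosome, was at 5.88, 5.93, 5.85 and 5.89 log2 CPM in HBB CB and at 6.53, 6.58, 6.49 and 6.38 in HBB Ps. All Ps samples were higher, by 0.61 on average (SE 0.08, adjusted p = 4.83e-06 from limma). In Pkp4 cUTR cells it was at 6.06, 5.96, 5.74 and 6.12 in CB and at 6.38, 6.44, 6.61 and 6.37 in Ps, without overlap, and rose by 0.48 (SE 0.08, adjusted p = 6.32e-05 from limma). Its paralog *Rab11b*, which has a pseudogene in the table that may share its reads, did not pass the test in either line (0.08 and 0.05).

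Of the 4 Rab RNAs of late endosomes and lysosomes, 2 were higher and 1 lower in HBB cells, and 1 was higher and 1 lower in Pkp4 cUTR cells. *Rab9*, which returns cargo from late endosomes to the Golgi, was at 4.66, 4.71, 4.72 and 4.53 log2 CPM in HBB CB and at 5.22, 5.32, 5.48 and 5.32 in HBB Ps, and rose by 0.67 (SE 0.11, adjusted p = 5.61e-05 from limma), without overlap. In the Pkp4 cUTR line it was at 4.69, 4.57, 4.78 and 5.15 in CB and at 4.99, 5.04, 5.40 and 5.29 in Ps. CB replicate 4 lay above 2 of the Ps samples there, and the rise was 0.38 (SE 0.11, adjusted p = 0.00728 from limma), or 0.12 and not called with total reads (adjusted p = 0.374 from limma).

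*Rab24*, which is linked to autophagy, was at 5.63, 5.53, 5.62 and 5.91 log2 CPM in HBB CB and at 5.30, 5.32, 5.22 and 5.26 in HBB Ps, without overlap, and fell by 0.40 (SE 0.11, adjusted p = 0.00449 from limma). The Pkp4 cUTR samples were at 5.91, 5.58, 5.59 and 5.88 in CB and at 5.22, 5.53, 5.72 and 5.27 in Ps, which overlapped. There it fell by 0.31 (SE 0.11, adjusted p = 0.0224 from limma), a call lost on leaving out either of CB replicates 1 and 4 or Ps replicates 1 and 4. *Rab24* overlaps the protein-coding gene *Prelid1* on the other strand.

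In the group of 5 Rab RNAs of secretory granules and lysosome-related organelles, *Rab27b*, which docks exosomes and secretory vesicles, was higher by 0.92 in HBB and 0.69 in Pkp4 cUTR cells, on 13 to 34 reads per sample. The Pkp4 cUTR call was lost with total reads (0.43, adjusted p = 0.185 from limma) and on leaving out any of CB replicates 2 and 3 or Ps replicates 2, 3 and 4 (adjusted p up to 0.136 from limma). Of the 5 members with other roles, *Rab28*, a ciliary member, was higher in both lines (0.37 and 0.23, neither called and the latter below 0 with total reads as library sizes), and *Rab40c* and *Rab44* were lower in both. *Rab40c*, whose product is part of a ubiquitin ligase, was at 5.71, 5.78, 5.69 and 5.78 log2 CPM in HBB CB and at 5.42, 5.22, 5.30 and 5.39 in HBB Ps, without overlap, and fell by 0.41 (SE 0.07, adjusted p = 0.000109 from limma). Its values in Pkp4 cUTR cells were 5.71, 5.85, 5.65 and 5.54 in CB and at 5.44, 5.47, 5.34 and 5.33 in Ps, and fell by 0.30 (SE 0.07, adjusted p = 0.00196 from limma). *Rab44*, an atypical large member, had 27 to 55 reads per sample in HBB CB and 10 to 23 in HBB Ps, a log2 fold change of −1.08. Its log2 fold change in Pkp4 cUTR cells was −0.68, and that call was lost on leaving out any of CB replicates 1 to 3, any Ps replicate or HBB Ps replicate 4 (adjusted p up to 0.129 from limma).

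The *Rab13* 3′UTR and its enrichment stood apart from those of the family together. Of the 11177 RNAs with an annotated 3′UTR, 67 had a purine share at least as high as that of *Rab13*, and their median log2 fold change was 0.32 in HBB and 0.22 in Pkp4 cUTR cells. Of these 67 RNAs, 11 (16.4%) were enriched in Ps of HBB cells and 10 (14.9%) in Ps of Pkp4 cUTR cells by that same 2-fold threshold of the study. Of the other 11110 RNAs, 342 (3.08%) and 448 (4.03%) were. These shares are a description, and *Rab13*, whose own share set the cut, is itself 1 of the 67. Annotated 3′UTRs of 30 bases or more were included. The lengths and kinds of the 67 RNAs were not compared with those of the others, so a link of purine share to enrichment was not tested. Among the Rab RNAs other than *Rab13*, *Rab44* and *Rab24*, with the next highest purine shares at 52.9% and 52.5%, were called lower in Ps in both lines, though in Pkp4 cUTR cells both calls were lost with some single samples left out. *Rab9*, which followed at 51.9%, was called higher in both lines, though in Pkp4 cUTR cells not with total reads. *Rab17*, at 51.8%, was not called in either line.

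**Figure D4:**
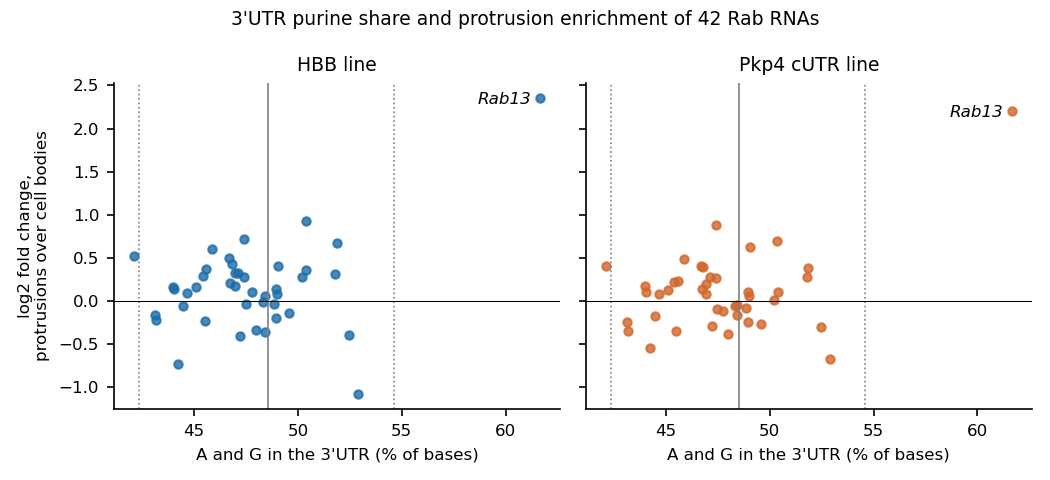
Share of A and G in the annotated 3′UTR (%) against the log2 fold change of Ps over CB for the 42 Rab RNAs in the HBB line (left) and the Pkp4 cUTR line (right); vertical lines mark the median of all RNAs at 48.5% and the 5th and 95th percentiles at 42.3% and 54.6%. *Rab13*, at 61.7%, is the only point to the right of the 95th percentile and lies above all other members in both lines.

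The lines were then compared, to ask whether the *Pkp4* 3′UTR changed the enrichment of Rab RNAs. The log2(Diff FC), the Pkp4 cUTR enrichment minus the HBB enrichment, was −0.16 for *Rab13* (SE 0.19, 95% CI −0.55 to 0.24, adjusted p = 1.00 from limma). Its level differed by 0.17 between the lines' CB (SE 0.14) and by 0.01 between their Ps (SE 0.12), neither of which passed the test. None of the 42 Rab RNAs passed an adjusted p under 0.05 for log2(Diff FC), where 0% of all 12900 RNAs did. At an unadjusted p under 0.05, 0 Rab RNAs passed, beside 2.33% of all RNAs. At an unadjusted p under 0.1, 2 Rab RNAs passed, beside 5.8% of all RNAs. These shares of all RNAs were smaller than the p thresholds alone would give by chance. The fit did not pair the lines by replicate number, and whether pairing would change these counts was not tested. The study set cutoffs on log2(Diff FC) and p among Ps-enriched RNAs only, and by them reported a group less enriched in Pkp4 cUTR cells. Those cutoffs were not applied here. The median log2(Diff FC) was −0.05 for the Rab RNAs, with 34 of the 42 values below 0, and 0.01 for all RNAs.

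The 3 Rab RNAs with the smallest unadjusted p were *Rab9*, *Rab32* and *Rab5a*. *Rab9* had a log2(Diff FC) of −0.29 (SE 0.16, 95% CI −0.62 to 0.04), *Rab32* one of −0.23 (SE 0.13, 95% CI −0.49 to 0.04) and *Rab5a* one of −0.27 (SE 0.16, 95% CI −0.61 to 0.08). The adjusted p was 1.00 from limma for each.

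In levels, 1 Rab RNA differed between the lines in both fractions. *Rab32*, which acts on mitochondria and lysosome-related organelles, was at 3.88, 3.99, 4.01 and 3.99 log2 CPM in HBB CB and at 4.48, 4.56, 4.63 and 4.74 in Pkp4 cUTR CB. It was at 3.89, 4.32, 4.10 and 4.00 in HBB Ps and at 4.44, 4.43, 4.40 and 4.66 in Pkp4 cUTR Ps, so that every Pkp4 cUTR sample lay above every HBB sample of its fraction. The difference was 0.63 in CB (SE 0.09, adjusted p = 0.000116 from limma) and 0.41 in Ps (SE 0.09, adjusted p = 0.0122 from limma). The Ps call was lost without replicate 1 of the HBB Ps (0.34, adjusted p = 0.0569 from limma) and with total reads (0.36, adjusted p = 0.068 from limma). In its Ps over CB enrichment *Rab32* was not called in either line (0.11 and −0.12), and the HBB value turned to −0.13 with total reads.

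*Rab1b* was lower in Pkp4 cUTR than in HBB CB. It was at 8.66, 8.60, 8.69 and 8.72 log2 CPM in HBB CB and at 8.40, 8.52, 8.49 and 8.39 in Pkp4 cUTR CB, without overlap, a difference of −0.22 (SE 0.07, adjusted p = 0.0456 from limma) that lost the call on leaving out any 1 of the 8 CB samples or either of HBB Ps replicates 1 and 4 or Pkp4 cUTR Ps replicate 2, and stood at −0.18 without the CB samples numbered 4. In Ps it was at 8.89, 8.68, 8.88 and 8.85 in HBB and at 8.73, 8.55, 8.66 and 8.54 in Pkp4 cUTR cells, which overlapped, with a difference of −0.21 (SE 0.07, adjusted p = 0.0664 from limma). The shares called of all RNAs were 3.42% higher and 5.55% lower in CB and 2.89% higher and 4.26% lower in Ps, beside 1 higher and 1 lower of 42 Rab RNAs in CB and 1 higher and 0 lower in Ps. Each construct was carried by 1 transduced line, so the 3′UTR cannot be told apart from other differences between the lines.

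**Figure D5:**
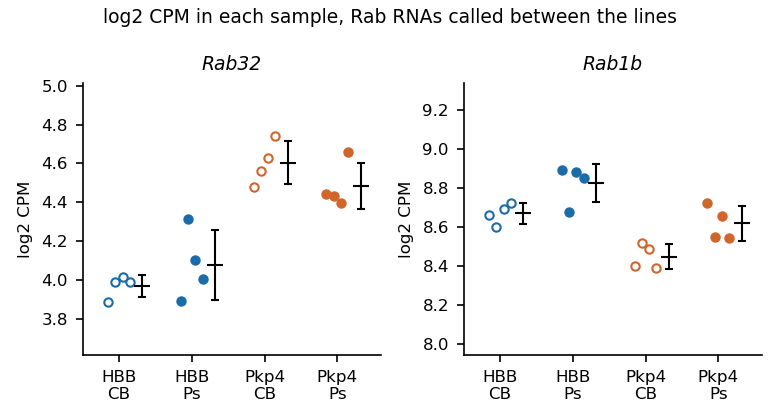
The log2 CPM of *Rab32* and *Rab1b*, the Rab RNAs called between the lines, in each of the 16 samples (points in the order of replicates 1 to 4; open, CB; filled, Ps), with the mean and SD of each group in black. *Rab32* lies at 3.88 to 4.32 in HBB and 4.40 to 4.74 in Pkp4 cUTR samples, whereas *Rab1b* CB samples lie at 8.60 to 8.72 in HBB and 8.39 to 8.52 in Pkp4 cUTR cells.

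RNAs of proteins that act on Rabs changed in both directions. The table held 4 of the genes listed as partners of *Rab13*, and 3 of these fell in both lines. *Micall2*, its effector at junctions and in actin remodelling, fell by 0.56 in HBB and 0.46 in Pkp4 cUTR cells, and *St5*, a DENN-domain exchange factor, fell by 0.50 and 0.56. *Micall1* also fell (−0.28 and −0.33), and *Rabif*, which stabilizes nucleotide-free Rabs, was not called (0.08 and 0.14).

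Of the 8 RNAs for prenylation, escort and GDP dissociation inhibition, 4 were higher and 1 was lower in each line. *Chm*, the Rab escort protein, rose by 0.95 in HBB and 1.64 in Pkp4 cUTR cells, and *Gdi2*, a GDP dissociation inhibitor, rose by 0.80 and 0.87. *Rabggta*, a subunit of the geranylgeranyl transferase, fell by 0.68 and 0.59.

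Of 46 exchange factors, 11 were higher and 22 lower in HBB cells and 13 higher and 18 lower in Pkp4 cUTR cells, with medians of −0.20 and −0.17. *Dennd6b*, an exchange factor with a DENN domain, had the largest decrease (−1.70 and −1.25), while *Trappc8*, a subunit of a TRAPP complex, was among the 3 with the largest rise (0.60 in both lines). Of 33 GAPs, 7 were higher and 14 lower in HBB cells and 7 higher and 12 lower in Pkp4 cUTR cells, with *Evi5* (0.63 and 0.64) and *Tbc1d24* (−1.13 and −1.08) among those with the largest changes. Of 41 effectors, 8 were higher and 14 lower in HBB cells and 12 higher and 14 lower in Pkp4 cUTR cells. The early endosomal tethers *Eea1* (1.02 and 1.35) and *Rabep1* (0.96 and 1.15) were the highest of these, and the lysosomal adaptor *Rilp* (−1.31 and −0.98) and the dynein adaptor *Bicd2* (−0.94 and −0.85) the lowest. Of 6 Rab-like RNAs, *Ift22* and *Ift27*, subunits of the intraflagellar transport complex, rose in both lines, and *Cracr2a* fell in Pkp4 cUTR cells. The shares of all RNAs called were those given above for the family.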

How the data were processed

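RNA from 16 samples of NIH/3T3 cells (4 groups of 4, assigned by line, fraction and replicate number in the labels) was prepared with a stranded kit. The authors aligned reads to mm10 with STAR 2.4.2a (version per the submitters' processing notes), counted them per gene with Rsubread on a GENCODE annotation and deposited log2 CPM from limma-voom for 12900 RNAs. Each RNA in the table reached at least 0.501 CPM in 1 or more samples, while 1418 RNAs never passed a log2 CPM of 0.5, so the stated cutoff of 0.5 holds on the CPM scale. The method behind the library scaling factors (0.828 to 1.11) is not given in the sources used here. These deposited log2 values all (100%) gave whole reads within 0.01, and voom on the recovered reads returned the deposited values within 5.55e-09.

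The recovered reads were fitted with limma-voom (limma 3.58.1, R 4.3.3), with 1 mean per group, all 16 samples, limma's moderated test, two-sided, and Benjamini-Hochberg adjustment over all 12900 RNAs. The exact permutation test used 4900 relabellings. The fit was also run on simulated reads with no change in log2(Diff FC) and no deviations shared between samples. No result here rests on that run. Gene positions, exon lengths and 3′UTRs came from GENCODE vM21 (GRCm38, the build of mm10), in which 12768 RNAs (99.0%) and all 42 Rab RNAs were found by symbol or older symbol. The transcript with a RefSeq match and the longest coding part was used for each 3′UTR.

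Values in each sample were given for *Rab13*, its subfamily, in each enrichment the 4 members with the largest change each way among those called with a mean log2 CPM above 1, and between the lines those called or, with none, the 3 with the smallest p. A few further members and partner genes were named as examples of their group, in part after their values were seen. The members and lists were chosen with earlier results of these data known. Samples that carry the same number in both lines shared their deviations from the group means, with correlations across 10154 RNAs of 0.331 to 0.628 between CB and 0.196 to 0.392 between Ps, so the numbers in the labels were taken to pair the lines. Whether Ps and CB within a line were paired was not settled by this check. Alternatives were fits without weights, other scalings, log2(CPM + 1), a filter at a mean log2 CPM of 0.5, a replicate block, and samples left out. Floors of reads cover counting error only, and intervals are those of the fit.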

Additional observations from a re-analysis of the deposited data

Results flagged for a closer look

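In groups of 4 samples, 60 sets of values (15 Rab RNAs in 4 groups) were searched for a single sample far from the other 3, and 2 were found, where chance flags about 5% of groups. Both belonged to *Rab36*. Replicate 4 of the HBB CB was at 4.24 log2 CPM and the other 3 samples were at 4.54 to 4.57. Replicate 3 of the Pkp4 cUTR Ps was at 3.51 log2 CPM and the other 3 samples were at 3.71 to 3.72. The decrease of *Rab36* in Ps was called in both lines without either sample.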

How the results depend on the processing

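The enrichment of *Rab13* kept its direction and its call under every alternative run, and 0 Rab RNAs passed for log2(Diff FC) under each. For log2(Diff FC), none of these runs paired the lines by replicate number. With total reads as library sizes, 8 Rab RNAs were called higher and 14 lower in Ps of HBB cells and 3 higher and 19 lower in Ps of Pkp4 cUTR cells, and between the lines' Ps 0 were higher and 2 lower. By construction this setting moves all RNAs together. By the 2-fold threshold of the study, the counts were 1 higher and 1 lower in HBB and 1 higher and 0 lower in Pkp4 cUTR cells. The count lower in Pkp4 cUTR CB was 0 without weights and trend, with median centring and without the CB samples numbered 4. The count lower in Pkp4 cUTR Ps was 1 with quantile normalization and 1 with log2(CPM + 1). For these the cause was not tested.

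With single samples left out, 14 to 17 Rab RNAs were higher and 6 to 7 lower in HBB cells, and 12 to 14 higher and 5 to 8 lower in Pkp4 cUTR cells. Between the lines, 0 to 1 were lower in CB, and 0 to 2 were higher and 0 to 2 lower in Ps.

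With total reads, the log2 fold changes of 10 Rab RNAs in HBB and 14 in Pkp4 cUTR cells changed sign. Among those given by sample these were *Rab8a* (−0.035 in HBB and −0.12 in Pkp4 cUTR), *Rab10* (−0.049 in Pkp4 cUTR), *Rab32* (−0.13 in HBB), *Rab5a* (−0.26 in Pkp4 cUTR), *Rab1b* (−0.081 and −0.093) and the difference of *Rab13* between the lines' Ps (−0.030, and −0.00614 with median centring). With single samples left out, *Rab5a* in Pkp4 cUTR cells ran from −0.052 to 0.065 and the *Rab13* difference between Ps from −0.091 to 0.12.

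With the replicate number as a block, 15 Rab RNAs were higher and 6 lower in HBB cells and 12 higher and 7 lower in Pkp4 cUTR cells, where *Rab24* (adjusted p = 0.0632 from limma) was lost among others, and no call between the lines changed. Deviations of same-numbered Ps and CB correlated at 0.178 on average in HBB and −0.161 in Pkp4 cUTR cells. Those with unlike numbers correlated at −0.062 and 0.061. With 4 pairs per line and opposite signs, this does not settle whether Ps and CB of a line were paired. Depth limits *Rab27b*, *Rab30*, *Rab37*, *Rab17* and *Rab44*, whose intervals were the widest of the family.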
